A study of Mus musculus with 12 samples.

Results

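Macrophage marker genes are genes whose RNA is used to recognise macrophages, the phagocytes that take up dead cells and debris, in a tissue. The 10 examined here, Cd68, C1qa, C1qb, C1qc, Csf1r, Tyrobp, Mrc1, Cd163, Lyz2 and Cd14, were found by gene symbol among the 25094 genes that each of the 2 deposited tables lists. The gastrocnemius, a muscle of the calf, was sequenced for poly(A) RNA in male WT mice, in 4 groups of 3 libraries each. The groups were the right and the left leg of BALB/c mice and the right and the left leg of C57BL/6 mice. The sciatic nerve of the right leg had been cut 2 weeks before the muscle was taken, with both ends turned back and stitched to nearby muscle. The left leg is labelled as healthy. The surgical protocol also describes a sham operation, and the labels do not say whether the left legs had one. Ages are not given, and whether the 3 libraries of a group are from different mice is not stated. The p-values therefore reflect no more than the scatter among these libraries, possibly technical. The series asks about the acetylcholine receptor protein α7nAChR in denervated muscle, and no group used here differs in genotype.

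The mean level of each macrophage marker was higher in right legs than in left legs of both strains. The estimated rise was larger in C57BL/6 for all 10, and that difference between the strains passed the test for 3. Of these 3, Cd68 is listed with another transcript for each strain, and Csf1r and Lyz2 lost the call without some single libraries. In BALB/c 8 of the 10 rose by limma and 0 fell, against 42.5% of all tested genes that rose and 7.67% that fell. In C57BL/6 all 10 rose and 0 fell, against 63.6% of all tested genes that rose and 8.56% that fell. The median gene was itself higher in the right legs, by 0.38 on the log2 scale in BALB/c and by 0.52 in C57BL/6. The median change of the markers was 1.50 in BALB/c and 2.90 in C57BL/6. The genes of the C1q complement subunits, Tyrobp, Cd68 and Lyz2 changed by at least 1.46 in BALB/c and 2.83 in C57BL/6 on log2(RPKM + 0.5). That scale shrinks the changes of low genes, so the order of the markers depends on it: Cd14 changed by 1.53 on it in C57BL/6, but its mean was 11.9-fold higher, more than the 9.76-fold of Lyz2. The scavenger receptor genes Mrc1 and Cd163 had the smallest folds of means in both strains, at 1.59-fold and 1.56-fold in BALB/c and 5.47-fold and 5.71-fold in C57BL/6.

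Skeletal muscle holds resident macrophages between its fibres, and monocytes from the blood enter it after injury and become macrophages there. Macrophages depend on signals through the receptor CSF1R, make the C1q that starts the classical complement pathway, and clear dead cells through scavenger receptors and lysosomes. In RNA of whole muscle, fewer cells of a type and less RNA per cell cannot be told apart.

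Values are RPKM, reads scaled to the length of the listed transcript and to the reads of the library, so levels can be set beside each other between genes. The tables of the 2 strains were normalized separately, so levels were tested only within a strain. The scaling totals of the libraries were between 18132600 and 19282900 reads. Changes were tested two-sided by limma on log2(RPKM + 0.5). Benjamini-Hochberg adjustment covered all genes averaging 0.1 RPKM or more in their table. A change with an adjusted p under 0.05 is called, or said to rise or fall. A change is given as right minus left with its SE, and its excess over the median gene follows as the relative change. All 10 markers had reads in all 12 libraries and all 10 passed the filter on low values in both strains. For 9 of them both tables list the same transcript, and Cd68 is the exception.

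Promoters of 6 markers, the 250 bases before and the 50 bases after the start of the gene, were available from RefSeq in build GRCm38.p6. Below, 4 are shown, because Cd68, C1qb and Lyz2 rose in both strains whereas Mrc1 was not called in BALB/c and was called in C57BL/6. Capitals mark matches, on either strand, to GAGGAA (the core of a PU box, the site type bound by the myeloid factor PU.1), TGANTCA (AP-1) and TTGCNNAA (C/EBP); TATAAA was searched too. The Cd68 promoter lies at chr11:69666121-69666420 on the minus strand, that of C1qb at chr4:136886151-136886450 on the minus strand, that of Mrc1 at chr2:14229164-14229463 on the plus strand and that of Lyz2 at chr10:117282223-117282522 on the minus strand.
Cd68: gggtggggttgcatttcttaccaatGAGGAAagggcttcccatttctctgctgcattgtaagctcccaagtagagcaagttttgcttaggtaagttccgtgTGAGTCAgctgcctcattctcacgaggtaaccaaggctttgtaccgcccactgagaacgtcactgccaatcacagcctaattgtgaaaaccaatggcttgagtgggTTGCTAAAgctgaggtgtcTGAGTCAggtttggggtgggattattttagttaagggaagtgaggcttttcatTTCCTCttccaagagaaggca
C1qb: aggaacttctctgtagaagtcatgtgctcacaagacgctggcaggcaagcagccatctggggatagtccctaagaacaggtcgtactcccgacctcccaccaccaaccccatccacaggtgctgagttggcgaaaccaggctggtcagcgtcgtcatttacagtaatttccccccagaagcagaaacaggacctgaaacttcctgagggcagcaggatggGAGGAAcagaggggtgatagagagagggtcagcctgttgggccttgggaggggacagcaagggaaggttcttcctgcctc
Mrc1: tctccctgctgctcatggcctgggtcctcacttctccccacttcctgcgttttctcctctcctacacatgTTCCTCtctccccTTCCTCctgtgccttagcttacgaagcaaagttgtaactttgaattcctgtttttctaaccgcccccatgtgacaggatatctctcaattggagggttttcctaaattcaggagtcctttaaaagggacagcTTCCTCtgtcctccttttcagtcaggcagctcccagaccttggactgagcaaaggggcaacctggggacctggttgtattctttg
Lyz2: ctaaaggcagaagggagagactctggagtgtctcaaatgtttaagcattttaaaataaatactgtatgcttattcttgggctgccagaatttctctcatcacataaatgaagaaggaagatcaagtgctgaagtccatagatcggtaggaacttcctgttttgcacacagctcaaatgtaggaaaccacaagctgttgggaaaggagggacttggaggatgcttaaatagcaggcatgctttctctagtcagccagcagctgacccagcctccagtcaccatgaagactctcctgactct
The PU box letters occur in 4 of the 6 promoters, those of Cd68, C1qb, C1qc and Mrc1, and in 28.3% of 32851 mouse promoters of the same length. In Cd68 the first match begins at base -225 from the start and another at base 30 on the opposite strand, and in C1qb the match begins at base -30. Mrc1 has 3 matches, the nearest at base -35 on the opposite strand. AP-1 letters occur in Cd68 alone of the 6, at bases -149 and -24, and in 7.81% of all promoters. C/EBP letters occur in Cd68 at base -43 and in 10.8% of all promoters. The windows of Lyz2 and Cd163 held no match to these letters. TATAAA was in none of the 6 windows and in 13.6% of all promoters. Markers with and without a match rose, and a match is a string of letters and not a shown binding site.

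The 3 chains of C1q rose together in both strains. C1qa, C1qb and C1qc encode the A, B and C chains of the molecule that binds antibody and dying cells and starts the classical complement cascade. They lie next to each other on mouse chromosome 4, in build mm9 at chr4:136451831-136454759 (C1qa), chr4:136436041-136442115 (C1qb) and chr4:136445717-136448829 (C1qc), all on the minus strand, with gaps of 3002 and 3602 bases. C1qa had 40.8, 65.8 and 35.2 RPKM in BALB/c right legs, against 10.03, 17.5 and 12.2 RPKM in BALB/c left legs. Every right value lay above every left value, and library 2 was the highest in each leg. The mean was 3.58-fold higher (log2 change 1.78 ± 0.27, relative 1.41, limma adjusted p = 0.00107).

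In C57BL/6 C1qa had 15.6, 38.8 and 25.7 RPKM in right legs, against 1.71, 2.43 and 2.17 RPKM in left legs. The legs did not overlap there either, and the lowest right value was far above the highest left value. The mean was 12.7-fold higher (log2 change 3.30 ± 0.30, relative 2.78, limma adjusted p = 4.8e-05).

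C1qb, whose promoter is printed above, had 32.1, 51.7 and 27.4 RPKM in BALB/c right legs and 7.13, 13.9 and 8.86 RPKM in BALB/c left legs. It had 14.0, 31.0 and 18.9 RPKM in C57BL/6 right legs and 1.73, 2.23 and 1.40 RPKM in C57BL/6 left legs. Right legs were higher without overlap in both strains, and the log2 change was 1.84 ± 0.29 in BALB/c (relative 1.46, limma adjusted p = 0.00133) and 3.19 ± 0.28 in C57BL/6 (relative 2.67, limma adjusted p = 3.9e-05). C1qc averaged 33.6 ± 8.41 RPKM in right legs and 12.3 ± 5.02 RPKM in left legs of BALB/c, and 18.7 ± 7.60 RPKM in right legs and 1.84 ± 0.184 RPKM in left legs of C57BL/6 (SD, n = 3 each). It rose by 1.46 ± 0.28 in BALB/c and by 2.97 ± 0.26 in C57BL/6 on the log2 scale (limma adjusted p = 0.00333 and 4.2e-05), again without overlap.

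The proportions of the chains were compared within each library. The ratio of C1qb to C1qa was 0.785, 0.785 and 0.779 in BALB/c right legs, against 0.711, 0.799 and 0.727 in BALB/c left legs. In C57BL/6 it was 0.898, 0.799 and 0.735 in right legs, against 1.01, 0.920 and 0.646 in left legs. The legs overlapped in both strains. The ratio of C1qc to C1qa was lower in BALB/c right legs, at 0.756, 0.654 and 0.764, against 0.881, 1.03 and 0.816 in BALB/c left legs, without overlap. The same ratio was 0.758, 0.692 and 0.682 in C57BL/6 right legs, against 0.968, 0.754 and 0.933 in C57BL/6 left legs, with overlap.

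**Figure D1:**
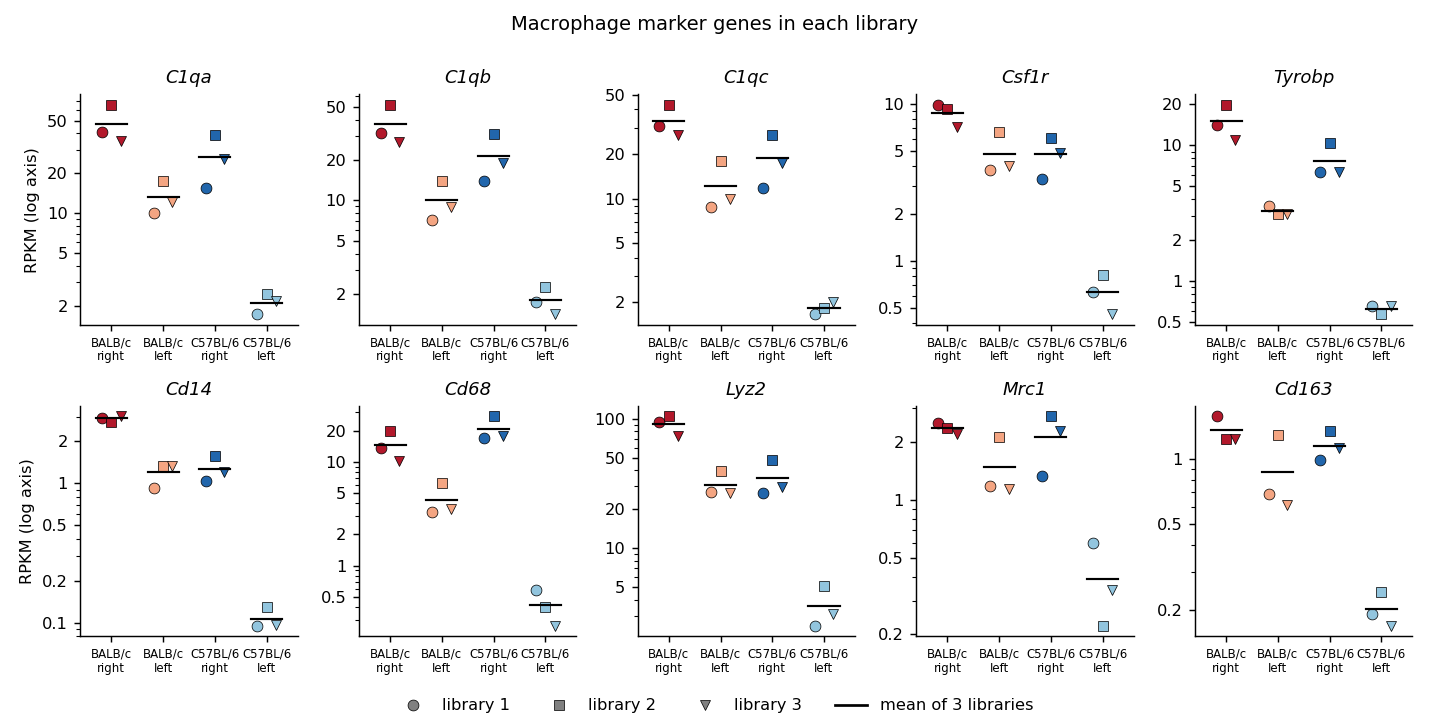
RPKM of the 10 macrophage marker genes in each of the 12 libraries, on a log axis that differs between panels; symbols give the library number and lines the mean of 3 libraries. Right-leg values lie above left-leg values of the same strain in every panel except that of Cd163 in BALB/c, where left library 2 (1.29 RPKM) lies among the right libraries, and the C57BL/6 left legs are the lowest group throughout.

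The signalling receptors and their adaptor rose in both strains, Tyrobp the most among the 3. Tyrobp encodes DAP12, the adaptor through which TREM2 and other myeloid receptors signal (chr7:31198801-31202598, mm9, plus strand). It had 14.2, 19.9 and 10.9 RPKM in BALB/c right legs, against 3.59, 3.12 and 3.14 RPKM in BALB/c left legs. In C57BL/6 it had 6.39, 10.3 and 6.33 RPKM in right legs, against 0.653, 0.567 and 0.658 RPKM in left legs. The legs did not overlap, and the left legs were close to each other within each strain. The log2 change was 2.0 ± 0.21 in BALB/c, the highest among the 10 markers there (relative 1.62, limma adjusted p = 2.1e-04), and 2.83 ± 0.18 in C57BL/6 (relative 2.31, limma adjusted p = 1.1e-05). The C57BL/6 left values rest on 6 to 7 reads each, and the ratio of summed reads was 12.3 with an exact 95% interval of 7.78 to 20.5, which covers counting error only. Hcst, which lies 133 bases away on the other strand, averaged 0.403 and 0.0410 RPKM in the right and the left legs of BALB/c.

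Csf1r, the receptor for the growth factors CSF1 and IL-34 (chr18:61265226-61290793, mm9, plus strand), had 9.86, 9.21 and 7.07 RPKM in BALB/c right legs, against 3.77, 6.63 and 4.02 RPKM in BALB/c left legs. It had 3.33, 6.10 and 4.88 RPKM in C57BL/6 right legs, against 0.630, 0.817 and 0.455 RPKM in C57BL/6 left legs. In BALB/c the lowest right value only just exceeded the highest left value, whereas the C57BL/6 legs were well apart. The log2 change was 0.82 ± 0.23 in BALB/c (relative 0.45, limma adjusted p = 0.0175) and 2.19 ± 0.21 in C57BL/6 (relative 1.67, limma adjusted p = 6.8e-05). The BALB/c call was lost after median-of-ratios rescaling (log2 change 0.34, adjusted p = 0.226), after rescaling to a common sum (adjusted p = 0.104), and without right library 1, right library 2, left library 1 or left library 3 (limma adjusted p = 0.0708, 0.0531, 0.0642 and 0.0709).

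Cd14, the co-receptor that hands bacterial lipopolysaccharide to TLR4 (chr18:36884718-36886469, mm9, minus strand), was low in all libraries but clearly separated. It had 2.95, 2.75 and 3.04 RPKM in BALB/c right legs, against 0.926, 1.33 and 1.33 RPKM in BALB/c left legs. In C57BL/6 it had 1.04, 1.56 and 1.21 RPKM in right legs, against 0.0950, 0.129 and 0.0960 RPKM in left legs. The log2 change was 1.02 ± 0.16 in BALB/c (relative 0.64, limma adjusted p = 0.00139) and 1.53 ± 0.13 in C57BL/6 (relative 1.01, limma adjusted p = 3.2e-05). At such low levels the added 0.5 RPKM shrinks the C57BL/6 change: the left values are 3 to 4 reads each, and the ratio of summed reads was 11.9 (exact 95% interval 6.24 to 25.4).

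Cd68 had the largest change of the 10 markers in C57BL/6. It encodes a lysosomal membrane glycoprotein of phagocytes (chr11:69477715-69479672, mm9, minus strand, in both tables). Cd68 had 17.1, 27.6 and 17.8 RPKM in C57BL/6 right legs, against 0.587, 0.396 and 0.263 RPKM in C57BL/6 left legs. The legs were far apart, and the left legs were near the detection limit, at 4 to 9 reads each. The log2 change was 4.52 ± 0.21 (relative 4.0, limma adjusted p = 3.0e-06), and the ratio of summed reads was 50.1 (exact 95% interval 31.9 to 83.6). The mean fold of the other 9 markers in C57BL/6 was 5.47 to 12.7.

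In BALB/c Cd68 had 13.5, 19.6 and 10.2 RPKM in right legs, against 3.27, 6.23 and 3.47 RPKM in left legs. The legs did not overlap, and the change was of the size of that of the C1q chains (log2 change 1.63 ± 0.29, relative 1.26, limma adjusted p = 0.00233). The table of each strain lists another transcript of Cd68: NM_001291058 with 1239 bases for BALB/c and NR_110993 with 808 bases for C57BL/6, within the same span. Reads were counted over unequal exons, so the Cd68 values of the strains are not on the same footing, and what this does to the change was not tested. Eif4a1, 766 bases from Cd68 on the same strand, also stood higher in the right legs, with means of 47.4 and 8.76 RPKM in the right and the left legs of BALB/c and of 39.8 and 6.69 RPKM in those of C57BL/6. Its part in the Cd68 values was not tested.

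Lyz2, the lysozyme of macrophages and neutrophils that cuts bacterial cell walls (chr10:116714597-116719328, mm9, minus strand), had the highest level among the 10 markers in every group. It had 94.96, 105 and 74.1 RPKM in BALB/c right legs, against 27.2, 39.2 and 26.6 RPKM in BALB/c left legs. In C57BL/6 it had 26.8, 47.7 and 29.6 RPKM in right legs, against 2.51, 5.08 and 3.08 RPKM in left legs. The legs were apart in both strains, with log2 changes of 1.55 ± 0.20 in BALB/c (relative 1.18, limma adjusted p = 4.7e-04) and 3.12 ± 0.28 in C57BL/6 (relative 2.60, limma adjusted p = 4.6e-05). Lyz1, a near-identical neighbour, averaged 4.58 ± 1.32 RPKM in right legs and 1.12 ± 0.666 RPKM in left legs of BALB/c, and 2.02 ± 0.587 RPKM in right legs and 0.394 ± 0.192 RPKM in left legs of C57BL/6 (SD, n = 3 each). How reads were split between the pair is uncertain.

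Mrc1 and Cd163, the scavenger receptors of resident and alternatively activated macrophages, rose in C57BL/6 and did not pass the test in BALB/c. Mrc1 encodes the mannose receptor CD206 (chr2:14151041-14253650, mm9, plus strand). In BALB/c it had 2.51, 2.37 and 2.22 RPKM in right legs, against 1.18, 2.14 and 1.14 RPKM in left legs. The right legs were close together and above all left legs, but left library 2 nearly reached them. The log2 change was 0.56 ± 0.21 (relative 0.19, limma adjusted p = 0.0563), with a 95% interval of 0.07 to 1.05.

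In C57BL/6 Mrc1 had 1.34, 2.74 and 2.28 RPKM in right legs, against 0.598, 0.222 and 0.342 RPKM in left legs. All right values were higher (log2 change 1.54 ± 0.24, relative 1.02, limma adjusted p = 7.5e-04).

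Cd163 encodes the receptor that takes up haemoglobin bound to haptoglobin (chr6:124254669-124280545, mm9, plus strand). It had 1.58, 1.24 and 1.24 RPKM in BALB/c right legs, against 0.687, 1.29 and 0.613 RPKM in BALB/c left legs, and these overlapped. The log2 change in BALB/c was 0.47 ± 0.21 (relative 0.09, limma adjusted p = 0.101), with a 95% interval of -0.02 to 0.96. In C57BL/6 it had 0.989, 1.34 and 1.11 RPKM in right legs, against 0.192, 0.243 and 0.169 RPKM in left legs, without overlap (log2 change 1.23 ± 0.11, relative 0.71, limma adjusted p = 5.5e-05). Without BALB/c left library 2, Mrc1 and Cd163 were also called in BALB/c (log2 change 0.79, adjusted p = 0.00793, and 0.68, adjusted p = 0.0161).

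**Figure D2:**
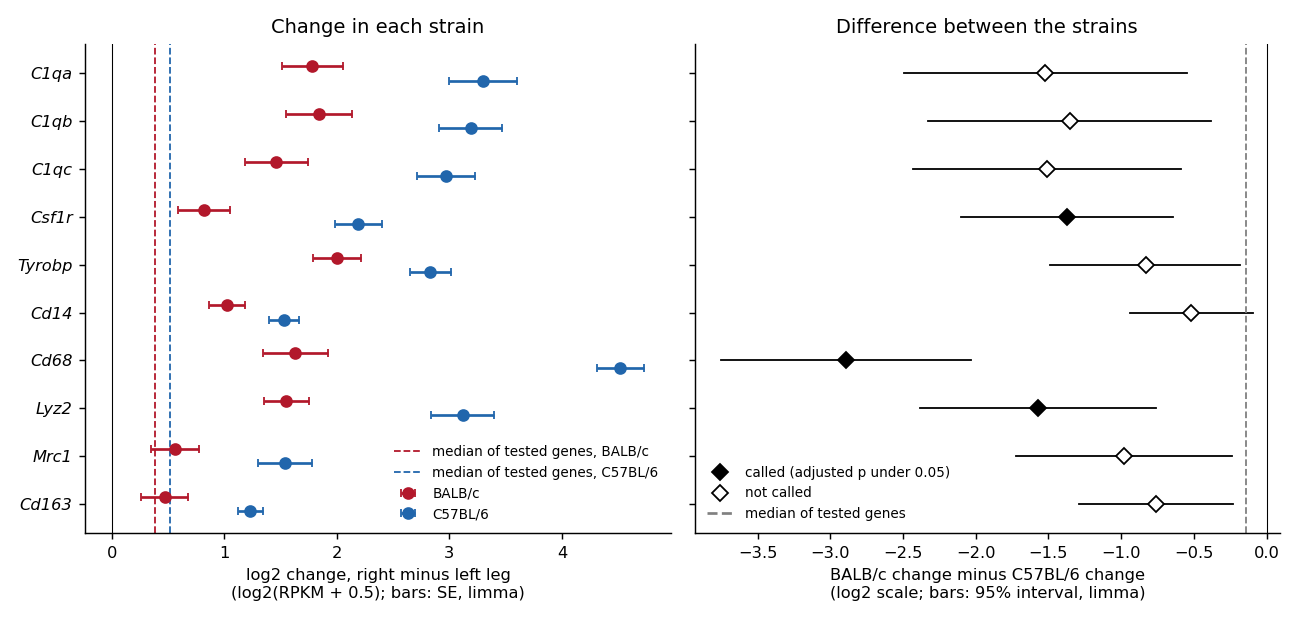
Left panel: log2 change of each marker, right minus left leg, with its SE from limma, for BALB/c and C57BL/6; dashed lines mark the median of all tested genes (0.38 and 0.52). Right panel: BALB/c change minus C57BL/6 change with its 95% interval; all 10 estimates are below 0 and the filled symbols, Csf1r, Cd68 and Lyz2, are the 3 that were called.

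Over all markers, the right legs of BALB/c lay above the left legs without overlap in 9 of 10, the exception being Cd163, against 48.1% of all tested genes. In C57BL/6 this held for all 10, against 66.2% of all tested genes. When the libraries were rescaled by median-of-ratios factors, which brings the median gene to about 0, 7 of 10 were called higher in BALB/c (21.8% of all tested genes) and 10 of 10 in C57BL/6 (28.2% of all tested genes). The share of calls that were higher was 84.7% as deposited and 53.2% rescaled in BALB/c, and 88.1% as deposited and 51.5% rescaled in C57BL/6. No marker was called lower under either scaling, against 19.2% of all tested genes in BALB/c and 26.6% in C57BL/6 after rescaling.

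The markers did not rise in equal proportion. Relative to C1qa in the same library, Mrc1 and Cd163 were lower in the right legs of both strains, without overlap. C1qa itself rose far more than the median gene, so any gene that rose less falls on this scale. The share of all genes that do so was not counted. The ratio of Mrc1 to C1qa was 0.0615, 0.0361 and 0.0630 in BALB/c right legs, against 0.118, 0.123 and 0.0935 in BALB/c left legs. It was 0.0857, 0.0706 and 0.0889 in C57BL/6 right legs, against 0.349, 0.0915 and 0.158 in C57BL/6 left legs. In C57BL/6 left library 1 was highest and left library 2 lay just above the right legs.

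Cd163 followed the same course, with a ratio to C1qa of 0.0386, 0.0188 and 0.0352 in BALB/c right legs, against 0.0685, 0.0741 and 0.0503 in BALB/c left legs. In C57BL/6 that ratio was 0.0634, 0.0346 and 0.0435 in right legs, against 0.112, 0.10 and 0.0779 in left legs. The ratio of Cd163 to Mrc1 overlapped between the legs in both strains, at 0.628, 0.521 and 0.559 in right legs and 0.581, 0.605 and 0.538 in left legs of BALB/c.

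Csf1r was lower relative to C1qa in BALB/c right legs (0.242, 0.140 and 0.201) than in BALB/c left legs (0.376, 0.380 and 0.330), and the legs overlapped in C57BL/6. The ratios of Tyrobp, Lyz2 and Cd14 to C1qa overlapped between the legs in both strains. Cd68 went the other way in C57BL/6, at 1.1, 0.712 and 0.693 of C1qa in right legs, against 0.343, 0.163 and 0.121 in left legs. In BALB/c, where another transcript is listed, the ratio of Cd68 to C1qa overlapped, at 0.330, 0.298 and 0.289 in right legs and 0.326, 0.357 and 0.285 in left legs. With 3 libraries in each leg no exact permutation test of a single ratio can go below p = 0.1, and none is given.

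**Figure D3:**
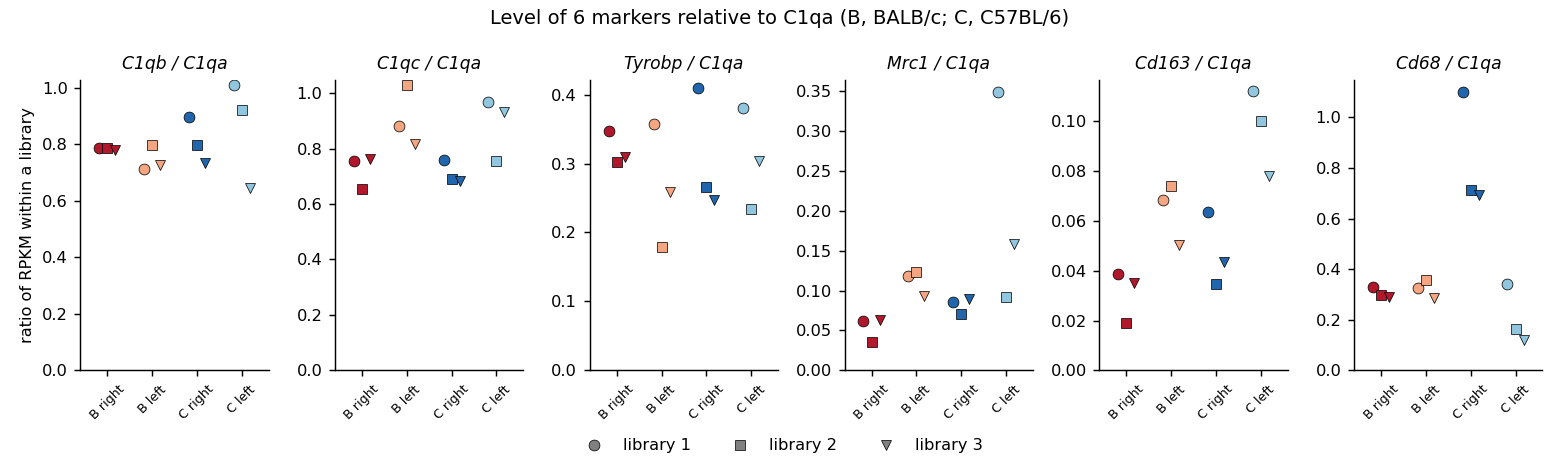
Ratio of the RPKM of 6 markers to that of C1qa within each library, on linear axes from 0, for the right and left legs of BALB/c (B) and C57BL/6 (C); symbols give the library number. C1qb and Tyrobp overlap between the legs in both strains, Mrc1 and Cd163 lie lower in the right legs of both, and Cd68 overlaps in BALB/c but is higher in C57BL/6 right legs.

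The strains differed in the size of the change. The change in BALB/c minus that in C57BL/6 was below 0 for all 10 markers, with a median of -1.36 against -0.14 over all tested genes. By limma over all 12 libraries 3 were called lower, Cd68, Csf1r and Lyz2, and 0 higher, against 4.33% of all tested genes called lower and 1.76% called higher. The difference was -2.89 ± 0.40 for Cd68 (adjusted p = 0.00327), with the limit of the unlike transcripts, -1.57 ± 0.37 for Lyz2 (adjusted p = 0.0313) and -1.37 ± 0.34 for Csf1r (adjusted p = 0.0353). Relative to the median gene these were -2.76, -1.43 and -1.24. Wider gene lists, described below, had median differences nearer that of all genes. They were -0.34 for other macrophage and myeloid lineage genes (1 of 20 called lower) and -0.33 for resident and alternatively activated macrophage genes (0 of 14). Lipid-handling and repair genes had -0.30 (3 of 13), and monocyte recruitment and inflammatory genes 0.31 (1 of 14). Fibroblast markers had -1.22, with 4 of 11 called lower.

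The other 7 were not called, which does not show that the strains changed alike. The C1q chains had differences of -1.52 ± 0.45, -1.35 ± 0.45 and -1.51 ± 0.42 (C1qa, C1qb and C1qc; limma adjusted p = 0.0659, 0.0934 and 0.0562). The 95% interval for C1qa was -2.49 to -0.55. With the replicate number fitted as a block, C1qa, C1qb and C1qc were called (limma adjusted p = 0.0161, 0.0223 and 0.0228). Mrc1 (-0.98 ± 0.34), Tyrobp (-0.83 ± 0.30), Cd163 (-0.76 ± 0.24) and Cd14 (-0.52 ± 0.20) had limma adjusted p-values of 0.105, 0.119, 0.0857 and 0.134. The values of these genes depended on the added 0.5 RPKM. With a pseudocount of 0.1, Cd14 differed by -1.48, Cd163 by -1.40 and Tyrobp by -1.27, and all 3 were called (adjusted p = 0.0126, 0.0397 and 0.0379), whereas Mrc1 differed by -1.51 and was not (adjusted p = 0.0740). With limma-voom on the recovered reads Cd14 (-2.18), Cd163 (-1.85) and Mrc1 (-1.84) were called (adjusted p = 0.0144, 0.0288 and 0.0467), and Tyrobp (-1.44) was not (adjusted p = 0.106). The number called depended on single libraries, from 1 to 7 when each was left out in turn, and only Cd68 was called in every such run. Between 1.55% and 7.24% of all tested genes were called lower in these runs. Csf1r lost its call without BALB/c right library 3, left library 2 or left library 3, and without C57BL/6 right library 2 or 3 or any of the C57BL/6 left libraries (limma adjusted p between 0.0507 and 0.0916). Lyz2 lost it without BALB/c right library 3 or left library 2, and without C57BL/6 right library 2 or 3 or left library 1 or 3 (limma adjusted p between 0.0611 and 0.0808). Csf1r was not called with a pseudocount of 1 either (adjusted p = 0.0638). After median-of-ratios rescaling 4 were called lower (3.52% of all tested genes), the 3 above and Cd14.

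Side by side, and without a test across the tables, the left legs differed more between the strains than the right legs did. The BALB/c left mean was 3.84-fold (Mrc1) to 11.2-fold (Cd14) that of the C57BL/6 left legs, and the left values did not overlap for any marker. The BALB/c right mean was 0.692-fold (Cd68) to 2.64-fold (Lyz2) that of the C57BL/6 right legs. Right values of the strains overlapped for Cd68, C1qa, C1qb, Mrc1 and Cd163. In each marker the C57BL/6 left values lay below every value of the other 3 groups. The share of all genes with such separations was not counted, so they are not shown to be particular to the markers. Left-leg sums were also higher in BALB/c than in C57BL/6 for fibroblast markers (808 to 1218 against 152 to 273 RPKM) and genes of all leukocytes (15.7 to 18.7 against 8.23 to 9.51 RPKM). They were lower for T cell markers (1.18 to 1.70 against 2.75 to 3.39 RPKM) and myofibre genes (141042 to 194195 against 202827 to 217479 RPKM).

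Libraries of a group differed in the markers as a set. The summed RPKM of the 10 was 243, 321 and 198 in BALB/c right legs, against 66.6, 109 and 71.3 in BALB/c left legs. It was 98.4, 194 and 125 in C57BL/6 right legs, against 10.4, 13.9 and 10.7 in C57BL/6 left legs. Library 2 had the highest sum in every group, and in C57BL/6 right legs all 10 markers were highest there. With the libraries numbered 2 left out of every group, an alternative chosen after seeing the data, all 10 were called higher in BALB/c (48.1% of all tested genes) and in C57BL/6 (54.5%), and 2 were called lower in the difference (1.60%).

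Within groups the markers moved together to unequal degree. Over the 12 libraries, the deviation of each marker from its group mean correlated with the mean deviation of the other 9 at r = 0.96 for C1qb, 0.95 for C1qc, 0.92 for C1qa, 0.90 for Csf1r and 0.87 for Cd68. The values were 0.79 for Lyz2, 0.70 for Cd163, 0.68 for Mrc1, 0.62 for Cd14 and 0.58 for Tyrobp. Among 10210 other genes that averaged 1 RPKM or more in both tables, those most like the markers were Anxa3 (r = 0.98), Folr2 (0.98), Plin3 (0.97), Plat (0.97) and Stk39 (0.96). Libraries share their depth and composition across genes, and these correlations are descriptions without a test.

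Wider macrophage and monocyte genes changed as follows, by counts of limma calls out of tested genes to be read against the shares of all genes given above. Of 20 other macrophage and myeloid lineage genes 14 rose and 1 fell in BALB/c, and 18 rose and 1 fell in C57BL/6, with median changes of 1.01 and 1.28. Lgmn, a lysosomal protease, averaged 57.6 ± 8.20 RPKM in right legs and 17.2 ± 3.46 RPKM in left legs of BALB/c (relative log2 change 1.35, adjusted p = 1.8e-04). In C57BL/6 it averaged 69.4 ± 5.44 RPKM in right legs and 9.21 ± 0.651 RPKM in left legs (relative log2 change 2.32, adjusted p = 7.0e-07). Both are limma values with SD over n = 3 each.

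Of 14 tested genes of resident and alternatively activated macrophages, 6 rose in BALB/c and 11 in C57BL/6, and 1 and 7 after rescaling. Their median change was 0.51 in BALB/c and 0.92 in C57BL/6. Pf4, a chemokine of platelets and resident macrophages, rose in both strains (relative log2 change 1.41 and 1.59, limma adjusted p = 0.00557 and 1.0e-04). Of the lipid-handling and repair genes 7 of 14 rose in BALB/c and 10 of 13 in C57BL/6. Lgals3, galectin-3 of activated phagocytes, averaged 84.8 ± 35.4 RPKM in right legs and 2.99 ± 0.903 RPKM in left legs of BALB/c, and 195 ± 38.8 RPKM in right legs and 1.38 ± 0.186 RPKM in left legs of C57BL/6 (SD, n = 3 each; limma adjusted p = 5.8e-05 and 2.7e-07). Gpnmb, a glycoprotein of lipid-laden phagocytes, averaged 10.1 ± 3.80 RPKM in right legs and 0.959 ± 0.373 RPKM in left legs of BALB/c (relative log2 change 2.47, limma adjusted p = 1.7e-04).

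Genes known to act with the markers were counted in the same way. Of the receptors and kinases that pair with the Tyrobp product, 7 of 10 tested rose in BALB/c and 7 of 9 in C57BL/6, and 5 and 6 after rescaling. Trem2, its lipid-sensing partner, averaged 4.52 ± 0.837 RPKM in right legs and 0.487 ± 0.115 RPKM in left legs of BALB/c, and 1.34 ± 0.777 RPKM in right legs and 0.0650 ± 0.0743 RPKM in left legs of C57BL/6 (SD, n = 3 each; limma adjusted p = 6.9e-05 and 0.00105). Of the Toll-like receptor partners of CD14, 9 of 12 rose in BALB/c and 10 of 10 in C57BL/6, and 7 in each strain after rescaling. Tlr4 rose by 2.04 in BALB/c and 2.26 in C57BL/6 on the log2 scale (limma adjusted p = 6.9e-05 and 1.6e-06).

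Of the ligands, relatives and downstream partners of CSF1R, 3 of 9 rose in BALB/c and 7 of 10 in C57BL/6, and 1 and 2 after rescaling. Their median change was 0.54 in BALB/c and 0.47 in C57BL/6, against 0.38 and 0.52 for all tested genes. Of other complement genes 11 of 17 rose in BALB/c and 12 of 16 in C57BL/6, and 3 and 10 after rescaling. C4b, which C1q-bound proteases cleave, rose in both strains (log2 change 1.32 and 1.78, limma adjusted p = 0.0114 and 2.6e-04), and its rescaled adjusted p was 0.0582 in BALB/c. Of the monocyte recruitment and inflammatory genes 12 of 15 rose in BALB/c and 11 of 14 in C57BL/6. Ccl8, a monocyte-attracting chemokine, averaged 8.90 ± 2.90 RPKM in right legs and 0.503 ± 0.331 RPKM in left legs of BALB/c (relative log2 change 2.86, limma adjusted p = 1.1e-04).

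**Figure D4:**
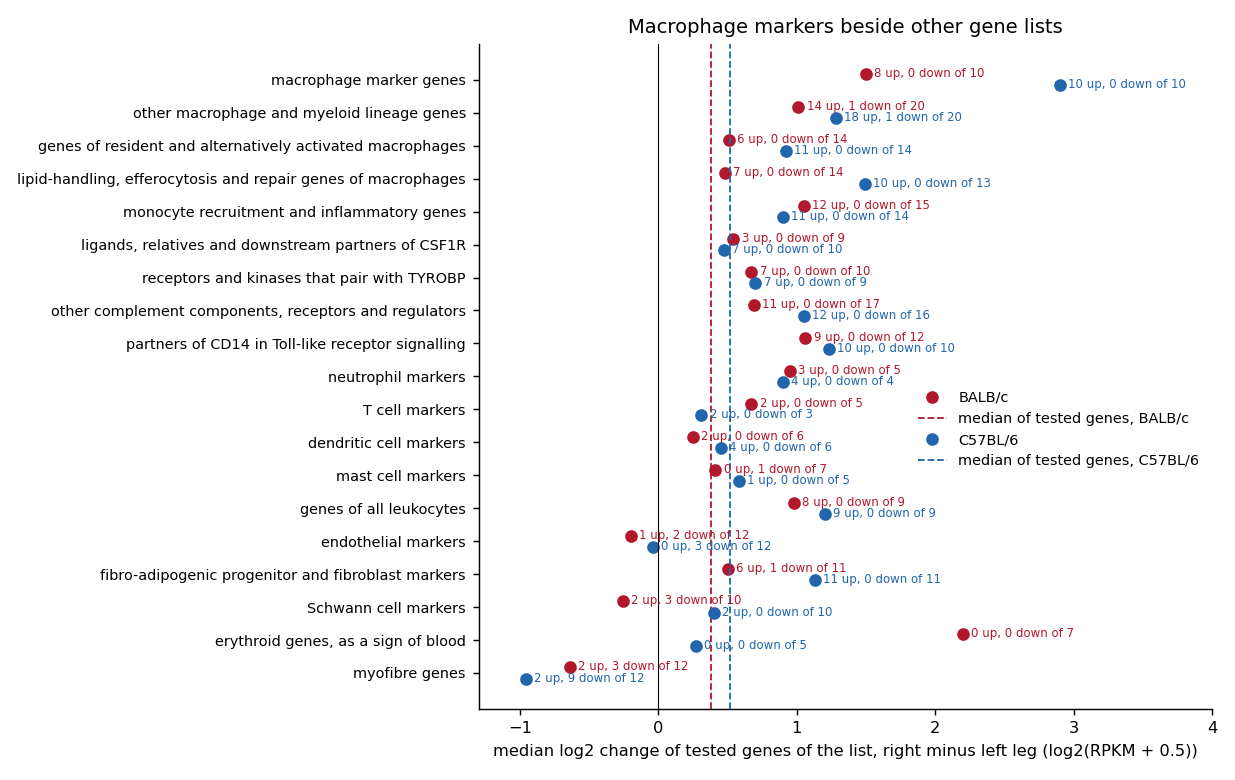
Median log2 change, right minus left leg, of the tested genes of each list in BALB/c and C57BL/6, with the number called higher (up) and lower (down) of those tested; dashed lines mark the median of all tested genes (0.38 and 0.52). The macrophage markers have the highest list median in C57BL/6 (2.90); in BALB/c (1.50) only the median of the erythroid genes (2.20), none of them called, is higher.

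Markers of other cells moved with the markers to differing extents. Genes of all leukocytes rose, 8 of 9 in BALB/c and 9 of 9 in C57BL/6, and 5 and 7 after rescaling. The 12 listed neutrophil genes summed to 41.6 to 341 RPKM in right legs and 0.804 to 1.62 RPKM in left legs of BALB/c, and to 107 to 286 RPKM in right legs and 0.118 to 0.686 RPKM in left legs of C57BL/6. In the right legs nearly all of this was S100a8, at 39.3 to 338 RPKM in BALB/c and 106 to 283 RPKM in C57BL/6, and Ly6g, Camp and Cxcr2 were at 0 in every C57BL/6 library. Whether all reads counted for S100a8 came from that gene was not tested. Lyz2 and Cd14 are also made by neutrophils, and the part of those cells in their values was not tested.

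T cell markers summed to 3.59 to 5.48 RPKM in right legs and 1.18 to 1.70 RPKM in left legs of BALB/c, and to 3.50 to 6.37 RPKM in right legs and 2.75 to 3.39 RPKM in left legs of C57BL/6. Of the fibroblast markers 6 of 11 rose and 1 fell in BALB/c, and 11 of 11 rose in C57BL/6; after rescaling 0 rose and 3 fell in BALB/c, and 5 rose in C57BL/6. Endothelial markers did not rise as a list: 1 rose and 2 fell of 12 in BALB/c, and 0 rose and 3 fell of 12 in C57BL/6, with 9 and 11 falling after rescaling. The rescaled falls of these lists stand beside 19.2% of all tested genes that fell after rescaling in BALB/c and 26.6% in C57BL/6. Of 12 myofibre genes, markers of the labelled tissue, 2 rose and 3 fell in BALB/c, and 2 rose and 9 fell in C57BL/6. Ckm, the creatine kinase of muscle, fell in both strains (limma adjusted p = 0.00564 and 4.6e-05), whereas Mb, myoglobin, and Des, desmin, were the 2 that rose in both. Ckm was at 6526 ± 2297 RPKM in right legs and 23736 ± 3168 RPKM in left legs of BALB/c, and 5755 ± 1440 RPKM in right legs and 29994 ± 1641 RPKM in left legs of C57BL/6 (SD, n = 3 each).

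Erythroid genes, a sign of blood, differed widely among the BALB/c libraries. Their sum was 12470, 27119 and 399 RPKM in BALB/c right legs, against 1308, 1848 and 239 RPKM in BALB/c left legs, and 262 to 343 RPKM in right legs against 162 to 326 RPKM in left legs of C57BL/6. Among the BALB/c right libraries the summed markers (243, 321 and 198 RPKM) had the same order as the erythroid sums. The orders also matched in the right and in the left legs of C57BL/6, but not in BALB/c left legs. In BALB/c right library 3, which had the lowest erythroid sum of the right legs there, the markers summed to 198 RPKM. The BALB/c left legs had marker sums of 66.6, 109 and 71.3 RPKM. Cd163 in that right library, at 1.24 RPKM, lay below left library 2 (1.29 RPKM). The part of blood in the marker values was not tested.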

How the data were processed

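Poly(A) RNA of the gastrocnemius was sequenced in 12 libraries. The authors deposited RPKM values separately for each strain; column names read FPKM, but the recorded command requests RPKM. HOMER, per the file headers, counted exon reads without regard to strand against its mm9 annotation with 1 transcript kept per gene, so overlapping genes share reads and near-identical copies may not be separated. The submitters' processing notes name HISAT2, HOMER, DESeq2, GRCm38 and mm10 without versions or roles, and no source used here states the build of the alignment. Positions are mm9 as deposited.

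Multiplying RPKM by transcript length and scaling total gave whole reads, within 0.1 read, for 100.0% of the low values checked in each library, and 14826933 to 17323383 reads per library lay in listed genes. No 2 libraries agreed within sampling noise. Genes that averaged 0.1 RPKM or more over their table's 6 libraries entered limma (version 3.58.1, R 4.3.3; lmFit and trended eBayes) on log2(RPKM + 0.5), a scale that understates changes of low genes. The difference between strains came from 1 fit over 12 libraries. The tests were checked on simulated data in which few genes changed and all genes had the same spread. That check does not cover the broad shift of genes seen here. Members of the marker set, gene lists and tests were chosen with earlier results of these data known. Named list genes are the up to 2 called per list, strain and direction with the largest change; not all of them are reported here. Alternatives were other pseudocounts, filters, scalings, a replicate block, eBayes without a trend, a shared spread, limma-voom and leaving out libraries.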

Additional observations from a re-analysis of the deposited data

Results flagged for a closer look

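The search covered the macrophage markers and the named genes of the macrophage, monocyte, CSF1R, Tyrobp, complement and Toll-like receptor lists. Named genes of the lists of other cells were not searched. Of the genes covered, 7 were singled out because their change, right against left leg, differed between the strains by limma over all 12 libraries. Among the markers these were Cd68, Lyz2 and Csf1r, with BALB/c changes minus C57BL/6 changes of -2.89, -1.57 and -1.37 on the log2 scale. The right legs were higher in both strains for all 3, so the change was smaller in BALB/c and not opposite. Cd68 is listed with another transcript in each table.

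The other 4 are list genes. Lgmn differed by -1.12 (adjusted p = 0.0119) and Lgals3 by -2.14 (adjusted p = 0.0154), and both rose in both strains. Spp1, osteopontin, differed by -4.34 (adjusted p = 0.0347): it averaged 2.08 ± 0.913 RPKM in right legs and 1.40 ± 0.565 RPKM in left legs of BALB/c, and 33.8 ± 4.40 RPKM in right legs and 2.10 ± 3.55 RPKM in left legs of C57BL/6 (SD, n = 3 each). Fn1, fibronectin, differed by -2.21 (adjusted p = 0.0464): it averaged 17.5 ± 3.96 RPKM in right legs and 15.3 ± 7.43 RPKM in left legs of BALB/c, and 11.4 ± 6.64 RPKM in right legs and 1.38 ± 0.260 RPKM in left legs of C57BL/6 (SD, n = 3 each). Neither Spp1 (adjusted p = 0.335) nor Fn1 (adjusted p = 0.513) was called in BALB/c. All adjusted p-values are from limma.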

How the results depend on the processing

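In C57BL/6 all 168 values under alternatives kept their direction and their side of the threshold, with 10 of 10 markers higher when each library was left out in turn. In BALB/c 157 kept both, 7 passed the threshold anew and 6 lost it, and 7 to 10 markers were called higher. Without single libraries 34.2% to 45.7% of all tested genes were called higher in BALB/c and 58.9% to 62.9% in C57BL/6. The difference between the strains was less stable: 177 kept both, 25 passed anew and 16 lost the call, while no value reversed. The 3 markers called lower in the difference became 8 with a pseudocount of 0.1, 6 with rescaling to a common sum, 6 with limma-voom and 2 with a pseudocount of 1. Of all tested genes 4.60%, 5.75%, 6.08% and 4.07% were called lower under these settings, in that order. Leaving out single libraries gave 1 to 7 markers and 299 to 1303 of all genes, against 862 of all genes, and leaving out every library numbered 2 gave 2 markers and 346 genes; the cause was not tested. The share of difference calls that were higher was 28.9% as deposited, 51.4% after median-of-ratios rescaling and 10.2% after rescaling to a common sum. With a filter at 1 RPKM, Cd163 and Cd14 were not tested in C57BL/6. Counts over all genes without single libraries were 5924 to 7830 in BALB/c and 9690 to 10331 in C57BL/6.

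With the replicate number as a block, 6 markers and 754 genes were called in the difference, and 8 and 10 markers were called higher in BALB/c and C57BL/6. Of all tested genes 3.67% were then called lower in the difference, and 39.0% and 62.8% higher in BALB/c and C57BL/6. The markers called in the difference with the block, and not in the main fit, were C1qa, C1qb and C1qc. Same-numbered legs correlated in their deviations at 0.01, 0.07 and 0.24 in BALB/c and 0.18, 0.10 and 0.01 in C57BL/6. Differently numbered legs correlated at -0.19 to 0.11 in BALB/c and -0.17 to 0.10 in C57BL/6. BALB/c right library 1 correlated best with left library 2 (0.11), and C57BL/6 right library 3 with left library 2 (0.10). The BALB/c sample codes skip the same number in both legs, but whether same-numbered legs are from 1 mouse is not stated. The correlations do not settle this, and the main fit did not pair the libraries.

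Depth limits the low values: the C57BL/6 left legs had 3 to 4 reads of Cd14, 4 to 9 of Cd68 and 6 to 7 of Tyrobp.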

Other observations

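S100a8 and S100a9, which together form the neutrophil protein calprotectin, stood at unlike levels. S100a8 had 39.4, 338 and 39.3 RPKM in BALB/c right legs, against 0.283, 0.285 and 0.556 RPKM in BALB/c left legs. S100a9 had 1.61, 2.21 and 0.402 RPKM in BALB/c right legs, against 0.956, 0.321 and 0.104 RPKM in BALB/c left legs. In C57BL/6 S100a8 had 106, 283 and 133 RPKM in right legs, against 0.409, 0 and 0.137 RPKM in left legs, and S100a9 had 0.608, 2.14 and 0.612 RPKM in right legs, against 0.102, 0 and 0.515 RPKM in left legs. Library 2 had the highest right-leg value of both genes in both strains. Whether all reads counted for S100a8 came from that gene was not tested, which limits these values. They were chosen for mention after they were seen.

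Schwann cell genes did not move as a list. Gldn, gliomedin, which Schwann cells place at nodes of Ranvier, averaged 2.74 ± 0.789 RPKM in right legs and 0.153 ± 0.0305 RPKM in left legs of BALB/c, and 2.53 ± 0.30 RPKM in right legs and 0.0833 ± 0.116 RPKM in left legs of C57BL/6 (SD, n = 3 each; limma adjusted p = 1.1e-04 and 1.3e-05). Of 10 Schwann cell genes 2 rose and 3 fell in BALB/c, and 2 rose and 0 fell in C57BL/6.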
